A study of Homo sapiens with 26 samples.

Results

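The kinesins described here are 9 genes of a CRISPR interference library, KIF2C, KIF13A, KIF14, KIF15, KIF16B, KIF18A, KIF18B, KIF20B and KIF24, chosen by name as every gene whose symbol starts with KIF followed by a digit or by C, apart from KIF11 and KIF23. They are targeted by 90 of the 6012 different sgRNAs of the library, with 10 sgRNAs for each gene, and make up 9 of its 544 targeted genes. The library was built on genes whose translation rises in G2, and it also holds 22 nontargeting control sgRNAs.

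The study screened for cells with large nuclei by optical enrichment, in which a microscope finds cells of a chosen appearance, activates a fluorescent protein in them with patterned light, and leaves them to be sorted by flow cytometry. All samples came from hTERT-RPE1, a line of human retinal pigment epithelium immortalized with telomerase, made to carry the CRISPRi repressor (dCas9-KRAB-BFP), a photoactivatable mCherry (PA-mCherry) and a GFP-tagged histone (H2B-mGFP), and all descend from 1 clone selected for its even photoactivation, to which H2B-mGFP was then added. In the nuclear size screen, cells with nuclei above 1000 µm² were photoactivated and sorted (8 samples, from 4 imaging runs in each of 2 replicates) and compared with unanalyzed cells of the same runs (6 samples). In the H2B-mGFP screen and the forward scatter (FSC) screen, cells in the top 10 percentile of GFP signal, which tracks the amount of chromatin, or of FSC, which tracks cell size, were sorted (2 samples each) and compared with the same unsorted controls (2 samples), so both screens share their controls.

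Kinesins are motor proteins that use ATP to move along microtubules or to take their ends apart. Many of them build the mitotic spindle, align chromosomes or close the bridge between daughter cells, and loss of such a motor can stall mitosis or leave a cell with more than its normal set of chromosomes and a larger nucleus. Others are known mainly for carrying vesicles and endosomes. The 9 genes hold both kinds. KIF18A and KIF18B (kinesin-8) shorten or dampen microtubule plus ends, KIF2C and KIF24 (kinesin-13) depolymerize microtubules at kinetochores and at centrioles, KIF14 (kinesin-3) and KIF20B (kinesin-6) act at the midzone in cytokinesis, KIF15 (kinesin-12) helps to keep the spindle bipolar, and KIF13A and KIF16B (kinesin-3) move endosomes.

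CRISPRi blocks transcription at the promoter, so the sequence around the start site is where these sgRNAs act. The protospacers of the 90 sgRNAs were not used here, and the genome build behind the positions in their names is not given in the sources used here, so the sgRNAs were not placed on the genome. RefSeq promoters (GRCh38.p14) were found for all 9 genes. The 250 bases before the start site are shown for the gene with the lowest estimate in the nuclear size screen (KIF16B), the gene of the highest scoring kinesin sgRNA (KIF14), the gene whose summed counts differed most between H2B-mGFP high and FSC high cells (KIF18B) and the kinesin with the lowest level in unanalyzed cells against unsorted cells (KIF18A), each 5′ to 3′ in the direction of its gene, with matches to CCAAT or TTTGAA on either strand in capitals. CCAAT is the box bound by NF-Y, and TTTGAA is a form of the CHR element of genes expressed late in the cell cycle.
KIF14 (chr1:200620752-200621001, minus strand): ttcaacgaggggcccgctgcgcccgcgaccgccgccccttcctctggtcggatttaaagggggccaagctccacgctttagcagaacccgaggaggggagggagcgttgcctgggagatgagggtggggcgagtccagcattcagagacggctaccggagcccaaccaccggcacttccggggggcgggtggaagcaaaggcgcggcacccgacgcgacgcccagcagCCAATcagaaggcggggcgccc
KIF16B (chr20:16573449-16573698, minus strand): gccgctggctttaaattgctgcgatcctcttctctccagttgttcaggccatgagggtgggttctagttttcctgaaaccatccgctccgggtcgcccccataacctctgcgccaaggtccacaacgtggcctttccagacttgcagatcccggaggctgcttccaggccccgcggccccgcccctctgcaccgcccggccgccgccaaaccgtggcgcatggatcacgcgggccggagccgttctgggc
KIF18A (chr11:28108157-28108406, minus strand): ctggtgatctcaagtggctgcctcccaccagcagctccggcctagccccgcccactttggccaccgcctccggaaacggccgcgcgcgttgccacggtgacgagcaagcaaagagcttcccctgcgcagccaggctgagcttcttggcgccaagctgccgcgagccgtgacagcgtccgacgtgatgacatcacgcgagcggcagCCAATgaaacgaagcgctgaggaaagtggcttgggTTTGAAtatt
KIF18B (chr17:44947774-44948023, minus strand): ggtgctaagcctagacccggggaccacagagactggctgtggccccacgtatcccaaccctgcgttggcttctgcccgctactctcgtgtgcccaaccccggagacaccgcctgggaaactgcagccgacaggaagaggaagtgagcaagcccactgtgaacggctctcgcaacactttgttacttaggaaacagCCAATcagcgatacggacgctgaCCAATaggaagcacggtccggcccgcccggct
CCAAT or its complement ATTGG was present in this window in 5 of the 9 kinesins, against 32.0% of 35116 RefSeq promoters, and TTTGAA or TTCAAA in 2 of the 9, KIF15 and KIF18A, against 13.3%. KIF18A held both motifs, KIF18B held CCAAT at 2 positions and KIF16B held neither. The GC content of the 9 windows ran from 58.0% in KIF24 to 88.0% in KIF13A, against a median of 58% over all promoters.

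Depth was far less even in the sorted samples of the nuclear size screen than elsewhere. Totals ranged from 2925093 to 45825231 counts per sample, and kinesin sgRNAs took 0.198% to 1.53% of them. None of the 1800 kinesin counts (90 sgRNAs in 20 samples) was 0. In unanalyzed cells the most abundant kinesin sgRNA held 2.30% to 2.63% of the kinesin counts of its sample, while in photoactivated cells it held 12.9% to 64.2%. In photoactivated samples 21 to 70 of the 90 sgRNAs had under 100 counts, against 1 to 3 in unanalyzed samples and 0 in unsorted controls. In replicate 2, 38 sgRNAs outside the kinesins, over 16-fold more abundant in a replicate 2 control than in the replicate 1 control, took 19.0% to 83.4% of the photoactivated counts. The counts come from PCR without molecular identifiers and so do not tell how many cells carried an sgRNA.

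By edgeR no kinesin gene was called in any of the 3 screens, while DESeq2 called KIF16B in the nuclear size screen. For each gene the counts of its 10 sgRNAs were summed, scaled by TMM to a common library size (given as CPM), and tested with edgeR's quasi-likelihood test over all 544 genes with Benjamini-Hochberg adjustment at 0.05 and the replicate as a block. In the nuclear size screen 0 of 9 kinesins were called, against 1.47% of all genes called higher and 0% called lower. At an unadjusted p under 0.05 the number was also 0, against 4.41% of all genes higher and 3.12% lower, while DESeq2 called 1, KIF16B, among 78 of 544 genes. In the H2B-mGFP and FSC screens edgeR called 0 of 9 kinesins and 0% of all genes in either direction, with 0 kinesins by DESeq2. At an unadjusted p under 0.05 there were 0 kinesins as well, against 2.39% of all genes higher and 1.29% lower in the H2B-mGFP screen and 1.47% and 3.86% in the FSC screen. The lowest adjusted p of a kinesin was 0.695 in the nuclear size screen, 0.980 in the H2B-mGFP screen and 0.883 in the FSC screen.

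KIF16B, an endosome motor that binds phosphoinositides, had the lowest estimate in the nuclear size screen. Its summed sgRNAs stood at 311 and 707 CPM in photoactivated cells of replicates 1 and 2, and at 1011 and 1067 in unanalyzed cells. Both photoactivated samples were below both unanalyzed samples. The log2 fold change was -1.15 with an SE of 0.62 and a 95% interval from -2.37 to 0.08 (edgeR adjusted p = 0.695). DESeq2 gave -1.14 with an adjusted p of 0.0232. KIF13A, which carries recycling endosomes, stood at 835 and 709 CPM in photoactivated cells and at 955 and 906 in unanalyzed cells, and its interval ran from -1.42 to 0.88.

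The 2 kinesin-8 genes also had estimates below 0, with intervals that include 0. KIF18A, which aligns chromosomes by damping the plus ends of kinetochore microtubules, stood at 222 and 780 CPM in photoactivated cells and at 586 and 675 in unanalyzed cells. The groups overlapped, with replicate 1 lower and replicate 2 higher than its control. The log2 fold change was -0.60 with the widest SE of the 9 genes, 0.73, and an interval from -2.03 to 0.84. KIF18B, which shortens astral microtubules, stood at 953 and 742 in photoactivated cells and at 1033 and 1005 in unanalyzed cells, with an interval from -1.39 to 0.84.

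The kinesin-13 genes differed between replicates. KIF2C (MCAK), which removes faulty kinetochore attachments, stood at 424 and 1068 CPM in photoactivated cells and at 1136 and 1074 in unanalyzed cells, so that nearly all of its log2 fold change of -0.71 (interval -1.87 to 0.44) came from replicate 1. KIF24, which acts at the mother centriole and restrains cilia, stood at 479 and 1252 in photoactivated cells and at 1073 and 1121 in unanalyzed cells, lower than its control in replicate 1 and higher in replicate 2. Its interval ran from -1.62 to 0.62.

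The cytokinesis kinesins showed the opposite split. KIF14, which binds PRC1 and citron kinase at the midzone, stood at 2379 and 707 CPM in photoactivated cells and at 1145 and 1064 in unanalyzed cells. KIF20B, which supports abscission, stood at 2266 and 848 in photoactivated cells and at 1121 and 1229 in unanalyzed cells. Both were higher than their control in replicate 1 and lower in replicate 2, with intervals from -0.93 to 1.40 for KIF14 and from -0.94 to 1.42 for KIF20B. KIF15, which can stand in for KIF11 in keeping spindle poles apart, was the only one of the 9 with both photoactivated samples above both unanalyzed samples, at 1091 and 1216 against 877 and 886. Its log2 fold change was 0.39 with an interval from -0.69 to 1.46 (edgeR adjusted p = 0.996).

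Single sgRNAs held much of these sums. For each gene the sgRNA with the largest share of its counts in a photoactivated sample was left out of all 4 samples, a step added after the data were seen and one that by its choice lowers that sample most. KIF20B_-_91461424 held 50.4% of the KIF20B counts of photoactivated replicate 1, and 42010 of its 43437 counts came from run 3. Without it KIF20B stood at 1123 and 797 CPM in photoactivated cells and at 1024 and 1136 in unanalyzed cells. KIF14_+_200589856 held 56.0% in the same sample, and without it KIF14 stood at 1046 and 609 against 1002 and 938. KIF15_+_44803708 held 39.5% of the KIF15 counts of photoactivated replicate 2. Without it KIF15 stood at 1081 and 736 against 797 and 799, so its groups then overlapped. KIF18A_-_28129287 held 70.5% of the KIF18A counts of photoactivated replicate 2. Without it KIF18A stood at 203 and 230 against 416 and 528, lower than its control in both replicates. The leading sgRNAs of KIF18B, KIF13A and KIF2C held 59.3%, 51.4% and 46.7% of their gene's counts in photoactivated replicate 1. Without their leading sgRNA KIF13A, KIF16B and KIF18B were lower than control in both replicates, as before. KIF2C and KIF24 were then lower in replicate 1 alone.

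The groups did not overlap in the higher direction for 1 kinesin (KIF15), against 21.9% of all genes, and in the lower direction for 4 (KIF13A, KIF16B, KIF18B and KIF2C), against 22.6%. The median log2 fold change was -0.28 over the 9 kinesins and -0.02 over all genes. A doubling (log2 of 1) lay inside the interval of 3 of the 9 genes, KIF14, KIF15 and KIF20B, and a halving (log2 of -1) inside that of 6. Calls rested on the photoactivated samples. Without photoactivated replicate 1 edgeR called 6 of 9 kinesins and 369 of 544 genes, and without photoactivated replicate 2 it called 7 and 398, since the single sample left was then assumed to vary as little as the unanalyzed samples do.

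KIF11 lay above the estimates of the 9 kinesins and KIF23 among them. KIF11, the kinesin-5 that pushes spindle poles apart, stood at 223 and 1914 CPM in photoactivated cells and at 89.2 and 189 in unanalyzed cells, a log2 fold change of 2.33 with an interval from 0.87 to 3.79 (edgeR adjusted p = 0.0836). KIF23, the kinesin-6 of centralspindlin, had a log2 fold change of 0.28 with an interval from -0.95 to 1.51. The interval of KIF11 overlapped those of KIF13A, KIF14, KIF15 and KIF20B, whose upper ends were 0.88, 1.40, 1.46 and 1.42, and the difference between genes was not tested.

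The phenotypic score weighs each sgRNA alike, and by it none of the 9 kinesins ranked near the top of the library for nuclear size. It is the log2 ratio of sorted to control counts of an sgRNA minus the median of the nontargeting sgRNAs, averaged over 4 runs in the nuclear size screen and over the sgRNAs of a gene, with the SD over 2 replicates. For nuclear size KIF14 scored 0.50 ± 0.45 (SD, n = 2), KIF15 0.47 ± 0.01, KIF13A 0.45 ± 0.10, KIF18A 0.38 ± 0.13 and KIF20B 0.35 ± 0.59. KIF2C scored 0.16 ± 0.29, KIF18B 0.11 ± 0.27, KIF24 -0.02 ± 0.32 and KIF16B -0.08 ± 0.33. The 9 ran from rank 171 for KIF14 to rank 513 for KIF16B of 544 genes. With KIF24 at rank 501, KIF24 and KIF16B lay near the low end. KIF11 scored 2.88 ± 0.79 at rank 7, from 3 sgRNAs that could be scored, and KIF23 0.92 ± 0.34 at rank 45. CENPE, a kinesin of the library outside the 9 by its symbol, scored 1.16 ± 0.02 at rank 28, from 6 scored sgRNAs. Neighbours in the order of the 9 differed by less than the larger of their SDs over replicates.

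A score above 0 says little here, because 392 of 544 genes (72.1%) scored above 0 in both replicates, and 4 of the 9 kinesins did, KIF13A, KIF14, KIF15 and KIF18A. The median score was 0.35 over the kinesins and 0.38 over all genes, with a median of 0.61 over the 22 nontargeting sgRNAs themselves once runs were averaged. KIF13A, KIF18A, KIF18B and KIF2C had scores above 0 and log2 fold changes of summed counts below 0. The score takes the mean over sgRNAs and runs, and the sum follows the most abundant sgRNAs. When counts were summed over runs before scoring, all 9 scores lay below 0, from -1.21 for KIF16B to -0.21 for KIF15, and so did the median gene at -0.47. With the median over sgRNAs in place of the mean, KIF18B scored -0.44 and KIF20B -0.06. Centred on all sgRNAs, KIF24 scored 0.28 and KIF16B 0.22, with the median gene at 0.68, and with no filter on low counts KIF18B scored 0.22.

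Many kinesin sgRNAs scored far above the rest in 1 or a few of the 8 runs. An sgRNA was counted as high in a run where its score lay over 2 above the median sgRNA of that run, a threshold chosen after the data were seen. Of the 713 scored values of kinesin sgRNAs in single runs 108 were high, against 18.8% of all values of targeting sgRNAs and 34 of 176 for nontargeting sgRNAs. By gene, the number ran from 9 of 80 for KIF18A to 15 of 75 for KIF13A, with 22 of 49 for KIF11 and 18 of 80 for KIF23.

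Of the kinesin sgRNAs that were ever high, about as many were high in 1 run as in more. Of the 90 sgRNAs 63 were high in at least 1 run, against 77.4% of targeting sgRNAs, and 31 of those 63 (49.2%) were high in a single run and 32 in 2 or more, with 44.7% in a single run among the targeting sgRNAs ever high. High runs in both replicates were seen for 17 of the 90, against 28.5% of targeting sgRNAs. The largest number of high runs for a kinesin sgRNA was 4 of 8, reached by 1 sgRNA each of KIF14, KIF18A and KIF18B, while 1 of the KIF11 sgRNAs was high in 7.

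The highest scoring kinesin sgRNA was among the 3 with the most high runs. KIF14_+_200589856 (named by gene, targeted strand and position) scored 7.96, 1.02, 6.37 and 1.06 in runs 1 to 4 of replicate 1 and 0.03, -0.30, 3.37 and 1.10 in runs 1 to 4 of replicate 2. It was the leading kinesin sgRNA of photoactivated run 1 of replicate 1, with 35512 counts, or 34.1% of all kinesin counts of that sample. Its mean score was 2.58, while the lowest KIF14 sgRNA, KIF14_-_200589695, had a mean of -0.74.

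The highest sgRNAs of 3 other genes also varied from run to run. KIF18B_+_43025009 (mean 1.60) scored 4.34 in run 2 of replicate 1 and below 0 in the other 3 runs of that replicate, then 0.59, 3.38, 3.40 and 3.36 in replicate 2. KIF20B_-_91461445 (mean 1.64) scored 6.68 in run 1 of replicate 1 and between 0.02 and 0.33 in the other 3 runs of that replicate. KIF18A_+_28129657 (mean 1.54) scored 4.23 in run 2 of replicate 1, 4.15 in run 1 of replicate 2 and -2.67 in run 4 of replicate 2. For these 3 sgRNAs the replicate means were 0.53 and 2.68, 1.82 and 1.45, and 1.94 and 1.15.

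For the remaining 5 genes the highest sgRNA had a mean score from 0.93 to 1.32. These were KIF16B_+_16553937 at 1.32, KIF2C_-_45205758 at 1.23, KIF13A_+_17987463 at 1.16, KIF24_-_34328780 at 1.15 and KIF15_+_44803708 at 0.93. KIF15_+_44803708 owed its mean to 7.10 in run 2 of replicate 2 and 2.32 in run 1 of replicate 2, and scored below 0 in all 4 runs of replicate 1. The highest sgRNA of KIF24 likewise scored -0.55 in replicate 1 and 2.85 in replicate 2.

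The lowest sgRNAs were low in every run in only some genes. KIF16B_+_16553904 had the lowest mean score of the 88 kinesin sgRNAs scored in both replicates, -1.18, and was below 0 in all 8 runs, from -0.27 to -3.69. KIF18B_+_43024684 (mean -0.997) and KIF2C_+_45205587 (mean -0.81) were also below 0 in all 8 runs. KIF20B_-_91461415 (mean -0.79) was below 0 in 7 runs, and KIF24_-_34328815 (mean -0.63) in 7 with 2.25 in run 2 of replicate 1. The lowest sgRNAs of KIF13A, KIF18A and KIF15 had means of -0.26, -0.28 and -0.36. Run 4 of replicate 2 pulls these values down, because the median of all sgRNAs lay at -1.57 there after centring on nontargeting sgRNAs, against -0.35 to 0.25 in the other 7 runs.

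By edgeR no kinesin sgRNA was called in any screen, while DESeq2 called 17 in the nuclear size screen. In the nuclear size screen edgeR called 0 of 90 over 6011 sgRNAs tested, against 0.0998% called higher and 0.133% called lower in the whole library. At an unadjusted p under 0.05, 15 of the 90 were lower, against 16.3% of all sgRNAs, and 0 were higher, against 0.749%. The lowest adjusted p was 0.0846, for KIF18B_+_43024684, with a log2 fold change of -2.36 and an SE of 0.79. DESeq2 called 17 of the 90, 15 lower and 2 higher, among 1601 sgRNAs in all. With only library totals used for scaling edgeR called 24, all lower, and the median gene of the library moved lower too. The share of all sgRNAs called in that setting is not given here. In the other 2 screens edgeR and DESeq2 called 0 of the 90. At an unadjusted p under 0.05 edgeR gave 0 in the H2B-mGFP screen, against 0.948% of all sgRNAs in each direction, and 1 higher and 3 lower in the FSC screen, against 1.8% and 1.81%.

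The replicates ranked the kinesin sgRNAs differently. Over the 88 sgRNAs with 2 nuclear size scores, Pearson's r between replicate scores was -0.16, given as a description across sgRNAs that share their libraries, against 0.14 over 5908 targeting sgRNAs. In the H2B-mGFP and FSC screens r was -0.09 and -0.02 over 90 sgRNAs. Scores above 0 in both replicates were seen for 18 of 88 sgRNAs in the nuclear size screen, 20 of 90 in the H2B-mGFP screen and 32 of 90 in the FSC screen, against 30.6%, 26.8% and 37.0% of targeting sgRNAs.

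Closely placed sgRNAs of 1 kinesin were no closer in score than others. The 10 sgRNAs of a kinesin gene spanned 277 bases in KIF20B to 509 bases in KIF18A, and 20 pairs on the same strand lay within 10 bases of each other, so that their targets overlap. For nuclear size the median absolute difference in mean score was 0.77 for these 20 pairs and 0.69 for the 367 other pairs within kinesin genes. In the H2B-mGFP screen the medians were 0.88 and 0.80, and in the FSC screen 1.18 and 0.96. Over all genes the medians in the nuclear size screen were 0.82 and 0.84.

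In the H2B-mGFP screen the kinesins lay on both sides of 0. KIF18A had the highest estimate, with 1682 and 1221 CPM in H2B-mGFP high cells and 1095 and 1226 in unsorted cells, a log2 fold change of 0.31 (interval -0.23 to 0.84). KIF18B had the lowest, with 1211 and 642 in H2B-mGFP high cells and 1224 and 1195 in unsorted cells, a log2 fold change of -0.40 (interval -1.13 to 0.33). In both genes 1 replicate held nearly all of the difference, replicate 1 for KIF18A and replicate 2 for KIF18B. KIF14 was the only kinesin with both H2B-mGFP high samples above both controls, at 1393 and 1681 against 1356 and 1283. Of all genes 16.4% had this order, and 0 kinesins had the reverse, against 24.4% of all genes. KIF14_-_200589865 held 24.3% of the KIF14 counts in H2B-mGFP high cells of replicate 1. Without it KIF14 stood at 1055 and 1460 against 1186 and 1097, and the groups overlapped.

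The intervals of this screen were narrower than those of the nuclear size screen. They lay between -1.13 and 0.84 for the 9 kinesins, so a doubling was outside all 9 and a halving was outside all but that of KIF18B. KIF16B, lowest in the nuclear size screen, stood at 724 and 1090 CPM against 949 and 1303 in unsorted cells, below its control within each replicate, with a log2 fold change of -0.32 (interval -0.98 to 0.35). The phenotypic scores ran from -0.34 ± 0.37 (SD, n = 2) for KIF16B to 0.29 ± 0.46 for KIF18A. KIF24 scored 0.00 ± 0.01, and the median was 0.00 over the kinesins and -0.10 over all genes. KIF11 scored 1.63 ± 0.52 and KIF23 0.87 ± 0.63 in this screen.

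In the FSC screen KIF24 was lowest. It stood at 828 and 721 CPM in FSC high cells and at 1074 and 1248 in unsorted cells, with both sorted samples below both controls, and its log2 fold change was -0.58 with an SE of 0.27 and an interval from -1.17 to 0.02 (edgeR adjusted p = 0.883). It was the only kinesin with this order, which 18.6% of all genes had. KIF15, KIF18B and KIF2C had the reverse order, which 15.4% of all genes had.

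KIF15 stood at 1457 and 1193 CPM in FSC high cells against 951 and 1046 in unsorted cells, and KIF2C at 1792 and 1893 against 1515 and 1265. KIF18B stood at 1298 and 1940 against 1224 and 1195, and 29218 counts of its FSC high sample of replicate 2, 53.5% of the counts of the gene there, came from a single sgRNA, KIF18B_+_43024994. Without that sgRNA KIF18B stood at 1266 and 902 against 1086 and 1011, and the groups overlapped. KIF2C_+_45205600 held 33.9% of the KIF2C counts of the same sample. Without it KIF2C stood at 1602 and 1252 against 1328 and 1142, and its groups overlapped too. Without KIF15_+_44803687 KIF15 stood at 1140 and 1170 against 879 and 895, and its groups stayed apart. The log2 fold changes of KIF15, KIF2C and KIF18B were 0.39, 0.42 and 0.43. Their intervals include 0 and reach up to 0.97, 0.91 and 1.16. By phenotypic score KIF15 (0.87 ± 0.45) and KIF13A (0.82 ± 0.34) were highest, at ranks 21 and 25 of 544, and KIF24 (-0.33 ± 0.64) was lowest at rank 514. Of the KIF15 sgRNAs 7 of 10 scored above 0 in both replicates, as did 7 of 10 of KIF13A, against 37.0% of targeting sgRNAs. These 2 genes were picked by the same scores.

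By summed counts KIF18B differed most between the sorted groups of the last 2 screens. Its 1211 and 642 CPM in H2B-mGFP high cells were below the 1298 and 1940 in FSC high cells, a log2 difference of -0.84 with an SE of 0.33 and an interval from -1.58 to -0.09. This contrast, in which the shared controls cancel, gave an adjusted p of 0.456 by edgeR, so it failed the correction. KIF18B was the 1 kinesin lower at an unadjusted p under 0.05, against 5.15% of all genes, and 0 were higher, against 5.7%, and neither edgeR nor DESeq2 called any of the 9. The same sgRNA, KIF18B_+_43024994, is part of the FSC high value. By phenotypic score the H2B-mGFP score minus the FSC score was -0.99 for KIF13A, -0.70 for KIF15 and -0.66 for KIF16B, all further from 0 than the -0.55 of KIF18B. By summed counts KIF13A had a difference of -0.55 (interval -1.10 to 0.00) and KIF24 one of 0.51 (interval -0.08 to 1.11).

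The nuclear size effects did not differ detectably from the effects in the other screens. In a joint fit of 10 summed samples 0 of 9 kinesins were called by edgeR or by DESeq2 when the nuclear size effect was set against the H2B-mGFP effect or against the FSC effect, while 2 of 544 genes (0.368%) were called higher and 0% lower in each contrast. At an unadjusted p under 0.05 there were 0 kinesins, against 3.68% of all genes higher and 3.86% lower in the first contrast and 4.6% and 4.04% in the second. KIF16B had the largest differences, -0.83 against the H2B-mGFP effect (interval -2.12 to 0.45) and -1.20 against the FSC effect (interval -2.49 to 0.10). KIF2C had -0.80 (interval -2.07 to 0.47) and -1.005 (interval -2.28 to 0.27), and KIF18A had -0.80 against the H2B-mGFP effect (interval -2.40 to 0.79). The joint fit assumed 1 spread per gene for all groups, photoactivated samples included. Its SEs for the 9 kinesins ran from 0.41 to 0.71 in both contrasts. They ran from 0.55 to 0.73 for the nuclear size effect alone, which is 1 part of each difference. These intervals can therefore be too narrow. Without photoactivated replicate 2 edgeR called some kinesins in these contrasts, with the single sample left assumed to vary like the others. The share of all genes called there is not given, so those calls are not results about the kinesins.

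Unanalyzed cells of the nuclear size screen were plated for imaging overnight, a step the unsorted controls did not go through, and the level of an sgRNA in both can be set side by side, a contrast added after the data were seen. KIF18A was the lowest of the 9, at 586 and 675 CPM in unanalyzed cells and 1095 and 1226 in unsorted controls, though each pair was scaled within its own screen. In the joint fit its log2 difference was -0.63 with an interval from -1.74 to 0.49 (edgeR adjusted p = 0.999). In either direction edgeR called 0 of 9 kinesins and 0% of all genes. That fit took 1 spread over all groups, photoactivated samples included, so its intervals can be too wide for these groups. At an unadjusted p under 0.05 it called 0 kinesins, against 2.21% of all genes lower and 0% higher. The other 8 lay between -0.08 and 0.18. The 2 kinesin sgRNAs lowest in this contrast were KIF13A_-_17987837 (log2 difference -3.67, SE 1.11) and KIF18B_+_43025067 (-1.95, SE 1.02), neither of them called by edgeR. KIF13A_-_17987837 had 6 to 92 counts in the 6 unanalyzed samples and 7 to 25 in the 8 photoactivated samples, against 467 and 1103 in unsorted controls, 215 and 441 in H2B-mGFP high cells and 735 and 868 in FSC high cells. KIF18B_+_43025067 had 4 to 139 counts in the 6 unanalyzed samples and 8 to 43 in the 8 photoactivated samples, against 397 and 444 in unsorted controls, 977 and 1212 in H2B-mGFP high cells and 85 and 198 in FSC high cells. Counts were too low for a nuclear size score of the KIF18B sgRNA in replicate 2 and of the KIF13A sgRNA in both.

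Other spindle and midzone genes of the library were taken from a list of 53 symbols, of which 19 are in the library. Of these, edgeR called 2 higher in the nuclear size screen, against 1.47% of all genes, and 0 lower. INCENP, the scaffold of the chromosomal passenger complex, had a log2 fold change of 2.91 (SE 0.58, adjusted p = 0.000457), and CDCA8, its subunit borealin, one of 2.42 (SE 0.58, adjusted p = 0.0035). At an unadjusted p under 0.05 edgeR gave 6 of the 19 higher in the nuclear size screen, against 4.41% of all genes, and 0 lower. In the H2B-mGFP and FSC screens 0 of the 19 were called by edgeR. At an unadjusted p under 0.05 there were 2 and 1 higher, against 2.39% and 1.47% of all genes, and 0 lower.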

How the data were processed

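The authors amplified sgRNAs from genomic DNA, counted them with a pipeline based on ScreenProcessing, and deposited raw counts per sgRNA with phenotypic scores on the log2 scale. How reads were matched to sgRNAs, and with which version, is not stated there. Of 6092 table rows, 80 repeat an sgRNA with the same counts and were used once. The members and the gene lists were chosen with earlier results of these data known.

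Scores were computed from the counts as in the study, leaving out an sgRNA with under 50 counts in both samples and adding 1 to both counts only where either was 0, and differed from the deposited log2 scores by at most 0.0094. The quasi-likelihood test of edgeR 4.0.16 (in R 4.3.3, after TMM scaling and filterByExpr) was run on counts of runs summed within each replicate, with DESeq2 1.42.0 and limma 3.58.1 as alternatives. Python 3.11.15, numpy 2.4.6 and pandas 2.3.3 made the scores. The fit was tested on simulated data. Intervals are at 95%. They rest on the spread between 2 replicates as edgeR shares it over all genes, not on 1 gene's replicates alone. This sharing was stronger in the nuclear size screen than in the other 2 screens. The study calls the replicates of the nuclear size screen biological replicates, without stating separate cultures. The replicate was kept as a block because each sorted sample has the control of its own replicate, and samples of the same number deviated together from their group means (r = 0.250 for nuclear size and 0.106 to 0.201 in the other screens, over sgRNAs).

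The text names all 9 kinesins, for each the sgRNA with the highest and the lowest mean nuclear size score, any sgRNA or listed partner past edgeR, and KIF11 and KIF23 for comparison. CENPE and other sgRNAs were named after their values were seen. The mIFP screen and 2 columns of nuclear size scores averaged over runs by the authors were not used here.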

Additional observations from a re-analysis of the deposited data

Results flagged for a closer look

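Of 18 sets of samples checked (8 photoactivated runs and 6 unanalyzed samples for each of the 9 genes), 1 held a sample far from the others, where chance flags about 1 in 20. The mean score of the KIF2C sgRNAs over the median gene of the run was 0.61 in run 2 of replicate 2 and between -0.61 and -0.04 in the other 7 runs.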

How the results depend on the processing

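Kinesin calls in the H2B-mGFP screen, the FSC screen and the contrast of their sorted groups stayed at 0 under every alternative run. In the nuclear size screen the number of called genes stayed at 0 apart from 1 with DESeq2 and 6 and 7 without photoactivated replicates 1 and 2 (range 0 to 7 over left-out samples). The called sgRNAs numbered 24 with library totals, 12 scaled to nontargeting sgRNAs, 17 with DESeq2, 12 with each run as a sample, 5 without run 3, 22 without run 4, and 0 to 81 over left-out samples, 72 and 81 of them without photoactivated replicates 1 and 2. Apart from DESeq2, the share of all sgRNAs called in these settings is not given here. These sgRNA counts therefore show how calls move with the processing and are not results about the kinesins. The nuclear size effect against the H2B-mGFP effect, or against the FSC effect, gave some called kinesin genes over left-out samples. The share of all genes called there is not given here. With 1 photoactivated sample left, it was assumed to vary like the other samples. The cause of the other moves was not tested.

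Uncalled estimates near 0 changed sign. Library totals moved the median gene to -1.13 for nuclear size and -0.56 for H2B-mGFP, which turned KIF14 (-0.88), KIF15 (-0.73) and KIF20B (-0.87) in the first and KIF18A (-0.19) in the second. Each run as a sample moved the median gene to 0.27 and turned KIF13A (0.18) and KIF18B (0.46), and leaving out run 1 turned the same genes (0.073 and 0.040). By mean score, limma turned KIF13A (0.45), KIF18A (0.38), KIF18B (0.11) and KIF2C (0.16) against 0, and against the median gene KIF13A (0.068) and KIF20B (-0.034) for nuclear size and KIF18B (-0.057) and KIF2C (-0.093) for FSC, with no kinesin called. Over left-out samples the log2 fold change ran from -0.64 to 1.07 for KIF14, -1.54 to 0.31 for KIF18A, -0.47 to 0.91 for KIF20B and -1.23 to 0.19 for KIF24 in the nuclear size screen, and from -0.87 to 0.0023 for KIF18B in the H2B-mGFP screen. With no replicate block (the pairing left out) 0 kinesin genes and 0 kinesin sgRNAs were called in every comparison, and the lowest adjusted p of a kinesin gene was 0.580 for nuclear size. The sgRNAs of each kinesin target 1 start site, so keeping start sites apart gave no other value. The nuclear size scores ran from -3.38 to -2.80 with library totals (median gene -2.92), from -1.21 to -0.21 with runs summed first, from -0.44 to 0.72 with the median over sgRNAs and from 0.22 to 0.79 centred on all sgRNAs.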
